A study of Mus musculus with 18 samples.

Results

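C3H10T1/2 cells given EGF and TCDD together were compared with the same cells given neither, on 5 of the 18 arrays of the series. The arrays were chosen by their labels alone: 2 titled EGF+TCDD and 3 titled UT, letters that the labels do not spell out and that were read as no EGF, no TCDD and no IDMB. The 2 arrays with TCDD alone and the 2 with EGF alone supplied the terms of the sum against which the joint change was set. C3H10T1/2 is a mouse fibroblast line that can be turned into fat cells in culture. TCDD had been present at 10 nM for 72 h and EGF at 10 nM for the last 24 h. On every array the mRNA was a pool of 6 cultures, harvested 72 h after serum was last given and 24 h after the cells became confluent. The remaining 9 arrays received IDMB, an adipogenic mix. They entered the floor for low values, the choice of probes to test and the estimate of spread, but no group mean compared here.

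TCDD is a chlorinated dioxin that binds the aryl hydrocarbon receptor (AhR), a transcription factor that pairs with ARNT on DNA holding the core GCGTG and switches on enzymes that metabolise foreign compounds. EGF binds a receptor tyrosine kinase whose signal runs through RAS and ERK to immediate-early transcription factors and, in quiescent fibroblasts, to entry into the cell cycle. Both agents are known to hold back fat cell formation in fibroblast lines.

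Levels are given as the deposited intensity of each array, and differences as log2 or fold after values under a floor of 143.5 were set to that floor. A probe was called higher or lower at a limma adjusted p under 0.05. The departure from the sum is the joint log2 change minus the log2 changes with TCDD alone and with EGF alone, and it is 0 where the fold changes multiply. The joint and the single changes share the UT arrays, so they are set side by side only. The labels do not say whether replicate arrays came from separate cultures, so the p-values measure the spread between these arrays, which may be technical.

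Array medians lay between 826.8 and 935.7 on the 9 arrays without IDMB. Of 14 fibroblast markers, 13 were above the floor on all UT arrays and Fap was at the floor on all of them, and the summed intensity of the list was 467259 to 512479 with UT and 460444 to 499727 with EGF+TCDD. The 12 epithelial markers summed to 4361.8 to 7227.3 with UT and 3963 to 4914 with EGF+TCDD. Among them Cdh1 read 1863.6 to 3364.1 with UT, and Epcam was under the floor on 2 of 3 UT arrays. The 16 macrophage markers summed to 12043.1 to 18486 with UT and 11823 to 15827.7 with EGF+TCDD. For 9 endothelial markers the sums were 11181.1 to 15891.7 and 12263.7 to 16990.9, and for 16 skeletal muscle markers 4607.5 to 6471.8 and 5558 to 6048. On all UT arrays 7 epithelial, 8 macrophage, 4 endothelial and 5 muscle markers were above the floor. The 8 bone and cartilage markers did not overlap, summing to 23335.2 to 32251.3 with UT and 15762.1 to 17654.6 with EGF+TCDD. Most of that sum was Bmp4, a bone morphogenetic protein, at 21260 to 30129 with UT and 13771 and 15398 with both (log2 -0.84, limma adjusted p = 0.0889). The part of these markers in the results was not tested. The Gapdh control probes, read at the 3' end over the 5' end as a sign of RNA quality, had a ratio of 2.34 and 2.71 on the EGF+TCDD arrays, 1.25 to 1.52 with UT, 0.919 and 0.854 with TCDD and 1.43 and 2.47 with EGF. The groups EGF+TCDD and UT did not overlap in it. With its log2 as a covariate the median standard error of the joint change was 1.56 times larger and 10 probes were called, 9 higher and 1 lower. The 20 named genes that fell without it stayed lower with it, at adjusted p of 0.0912 to 0.437, so their calls were lost.

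With EGF and TCDD together, 8 of 13 tested AhR targets, 8 of 31 ERK-induced factors and feedback genes, 18 of 40 S phase genes and 17 of 42 G2 and mitosis genes rose. Of the peptide receptors 2 of 13 fell, and of the contractile genes 4 of 17 fell and 1 rose. Of 7134 probes tested, 211 (2.96%) were higher and 174 (2.44%) lower with EGF+TCDD than with UT, 5.4% in all, standing for 188 and 159 genes. The median called change was log2 1.25 upward and -1.07 downward, and 36 and 24 probes passed 4-fold. The arrays of the 2 groups did not overlap on any of the 385 called probes, as on 36.7% of all probes tested. With all array medians made equal, 133 probes were higher and 179 lower, so the share of calls that were higher moved from 54.8% to 42.6%. For comparison, 3.88% of probes were higher and 3.8% lower with TCDD alone (7.68% in all) and 3.59% and 2.58% with EGF alone (6.17%). From TCDD alone to both agents 1.6% were higher and 1.91% lower, and from EGF alone to both 0.238% and 0.0421%. The joint count was 46 without EGF+TCDD 1, 78 without EGF+TCDD 2 and 112 without UT 2.

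The AhR target list, written with earlier results of these data known, had 13 of its 26 genes tested, and 8 of them rose, 0 fell and 5 were not called, against 2.96% of all probes called higher. The median joint change over the 13 was log2 1.47, against 0.0186 over all probes. The promoters of 3 of the raised genes are shown because the AhR binding core lies in each of them. They are the 250 bases before the RefSeq start in GRCm38.p6, with GCGTG or its complement CACGC in capitals, at chr3:65528197-65528446 (plus strand) for Tiparp, chr9:57697363-57697612 (plus strand) for Cyp1a1 and chr17:79715062-79715311 (minus strand) for Cyp1b1.
Tiparp: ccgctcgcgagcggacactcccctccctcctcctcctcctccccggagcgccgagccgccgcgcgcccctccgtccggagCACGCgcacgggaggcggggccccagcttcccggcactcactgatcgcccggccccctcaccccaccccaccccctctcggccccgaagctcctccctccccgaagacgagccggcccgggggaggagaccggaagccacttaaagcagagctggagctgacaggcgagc
Cyp1a1: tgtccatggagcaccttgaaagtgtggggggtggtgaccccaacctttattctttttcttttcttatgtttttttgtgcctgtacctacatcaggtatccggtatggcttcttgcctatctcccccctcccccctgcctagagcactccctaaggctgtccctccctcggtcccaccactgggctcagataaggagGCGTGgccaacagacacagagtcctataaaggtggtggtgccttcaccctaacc
Cyp1b1: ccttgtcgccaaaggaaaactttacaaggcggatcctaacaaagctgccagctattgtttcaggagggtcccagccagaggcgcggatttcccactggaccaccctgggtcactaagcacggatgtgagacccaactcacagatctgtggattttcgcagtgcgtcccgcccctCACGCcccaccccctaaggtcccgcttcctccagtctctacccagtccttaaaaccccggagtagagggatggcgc
The core was searched on both strands. It was found in these 3 of the 6 raised AhR targets with a RefSeq promoter, in 52.4% of the 4405 tested genes with one and in 30.9% of all 27025 genes in the table.

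Aldh3a1, an aldehyde dehydrogenase induced through AhR, was read at 1179, 1783 and 2174 with UT and at 33175 and 43925 with EGF+TCDD. TCDD alone gave 22549 and 13365, and EGF alone 3228 and 2138. Both joint arrays lay above every other array without IDMB, and the EGF arrays overlapped with UT. The joint change was log2 4.52 (SE 0.330, limma adjusted p = 2.08e-06), the change with TCDD 3.39 and with EGF 0.66, and the departure from their sum 0.47 (SE 0.490, 95% interval -0.56 to 1.51, adjusted p = 0.683). The step from TCDD alone to both was 1.14 (adjusted p = 0.0920). A dimmer probe of Aldh3a1 rose by 4.49 jointly and by 2.17 with TCDD, and its step from TCDD to both, 2.32, passed the test (adjusted p = 0.0141). It was the only one of the 7134 probes (0.014%) called beyond both single treatments. Its departure was 2.53 (adjusted p = 0.0776).

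Tiparp, an AhR-induced ADP-ribosyltransferase that acts back on AhR, was at 1118, 562.3 and 844.0 with UT and at 10360 and 14264 with EGF+TCDD. TCDD alone read 12955 and 10937 and EGF alone 1045 and 1071, so the joint arrays overlapped with TCDD and the EGF arrays with UT. The joint change, log2 3.91, and the change with TCDD, 3.88, differed by 0.03 (95% interval -0.73 to 0.79). Nqo1, a quinone reductase, read 3406, 4102 and 5434 with UT, 18940 and 15074 with TCDD, 6450 and 7438 with EGF and 21456 and 21194 with both. Its joint arrays were the highest of the 9, and its step from TCDD to both was 0.34 (95% interval -0.20 to 0.87).

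Both CYP1 genes, whose enzymes oxidise aromatic hydrocarbons, read highest on the joint arrays. Cyp1a1 was at 239.2, 427.5 and 433.9 with UT, 3189 and 835.6 with TCDD, 285.4 and 203.4 with EGF and 6441 and 3651 with both. The 2 TCDD arrays stood far apart from each other, and EGF arrays overlapped with UT. The step from TCDD to both was log2 1.57 (SE 0.658, limma adjusted p = 0.198), and the departure was 2.13 (SE 0.891, adjusted p = 0.255), which ran from 1.16 to 3.09 with 1 array left out. Without EGF+TCDD 1 the joint rise of Cyp1a1 was 3.37 and no longer called (adjusted p = 0.0632). Cyp1b1 was at 42628, 44033 and 38314 with UT, 97420 and 68000 with TCDD, 26645 and 39679 with EGF and 115017 and 114631 with both. For both genes the EGF mean lay below the UT mean, by log2 0.56 and 0.35 (adjusted p = 0.675 and 0.305), while the joint mean lay above the TCDD mean. The departure of Cyp1b1 was 0.85 (95% interval 0.27 to 1.43, adjusted p = 0.152).

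**Figure D1:**
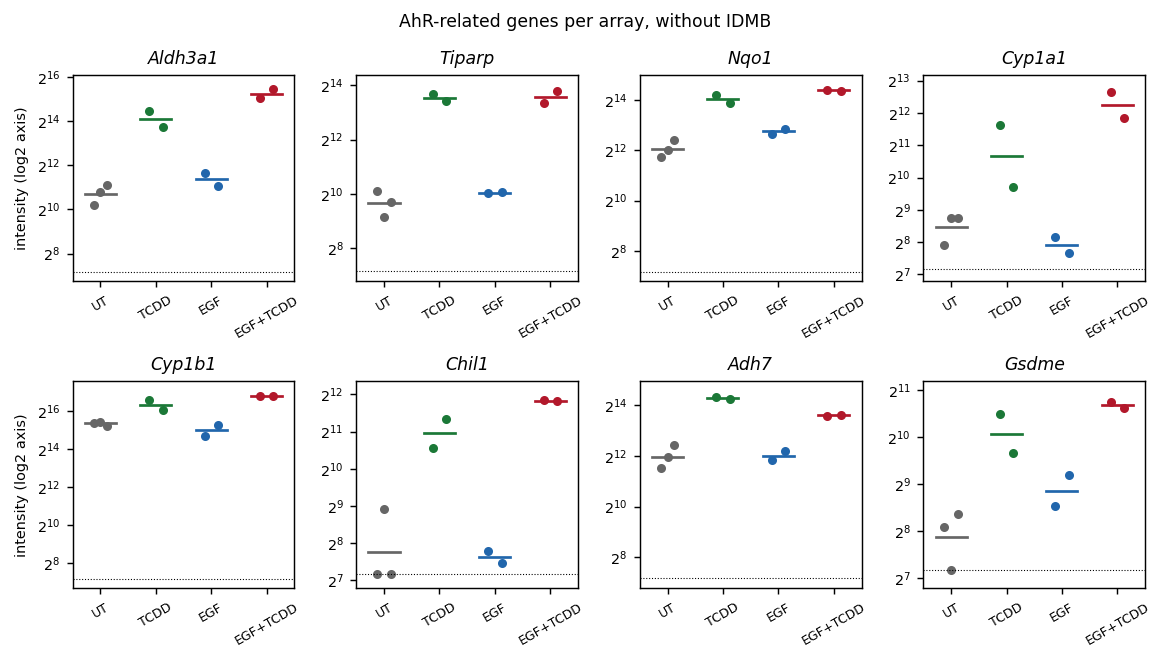
Intensity of 8 genes that rose with EGF+TCDD, on each of the 9 arrays without IDMB (vertical axes, log2 scale). Points are arrays set to the floor of 143.5 where lower, lines are the means of the log2 values, and the dotted line is the floor. Adh7 is from the retinoid metabolism list and Gsdme from neither AhR list, so the heading AhR-related does not apply to them. TCDD and EGF+TCDD arrays lie above UT for each gene, and Aldh3a1, Nqo1, Cyp1a1, Cyp1b1, Chil1 and Gsdme read highest with EGF+TCDD, whereas Adh7 reads highest with TCDD alone.

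Chil1, a secreted chitinase-like protein, was counted among the 8 raised genes of the AhR target list. It read 54.4, 480.4 and 67.0 with UT, so 2 of 3 UT arrays were under the floor. It read 1515 and 2603 with TCDD, 222.5 and 174.9 with EGF and 3705 and 3591 with both. The joint arrays were the highest, and the departure was log2 1.00 (SE 0.849, limma adjusted p = 0.612). Adh7, a retinol and alcohol dehydrogenase from the retinoid metabolism list, was ordered the other way. It was at 2913, 4014 and 5553 with UT, 20558 and 19418 with TCDD, 3634 and 4686 with EGF and 12392 and 12459 with both. The joint rise was 3.09-fold (log2 1.63, SE 0.307, adjusted p = 0.00731) and the step from TCDD to both -0.69 (95% interval -1.40 to 0.03, adjusted p = 0.278). The rise of Adh7 was not called without EGF+TCDD 1 or without EGF+TCDD 2 (adjusted p up to 0.0770).

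Ido1, the tryptophan-degrading dioxygenase, and Nfe2l2, which encodes the oxidative stress regulator NRF2, were the other AhR targets that rose, by log2 2.45 (limma adjusted p = 0.017) and 1.41 (adjusted p = 0.0017). Of 28 NRF2 and oxidative stress genes, 1 rose (Nfe2l2 itself), 1 fell (Sqstm1, a cargo receptor of autophagy, -0.76) and 26 were not called. That is near the shares of all probes, 2.96% higher and 2.44% lower. Gclc and Txnrd1, known NRF2 targets, had joint changes of 0.76 (adjusted p = 0.279) and 0.45 (adjusted p = 0.160). Ahr itself was at 3333, 4643 and 7503 with UT and 4789 and 4266 with EGF+TCDD, overlapping (log2 -0.11, SE 0.303, adjusted p = 0.892). Ahr was lower with TCDD alone (2876 and 1817, log2 -1.09, adjusted p = 0.0375). Of 9 genes of the AhR pathway, Hsp90aa1, a chaperone of the receptor, rose (0.65, adjusted p = 0.048), a call lost whichever 1 of the 5 arrays compared was left out.

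Left out in turn, the 5 arrays gave 6 to 9 AhR targets called higher. With the Gapdh ratio as a covariate 3 were called: Aldh3a1, Tiparp and Nqo1.

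The ERK-induced transcription factors and feedback genes included the largest called rises outside the AhR targets. Of 31 tested, 8 rose, 1 fell (Jund, -1.06) and 22 were not called, with a median of log2 0.50. Of all probes 2.96% were higher and 2.44% lower. Fosl1, a component of AP-1, was at 428.2, 155.3 and 318.4 with UT, 3068 and 1297 with TCDD, 3217 and 2791 with EGF and 3474 and 3332 with both. All 6 treated arrays lay above UT, and the joint arrays exceeded the highest single-treatment array by little. The joint rise was 12.3-fold (log2 3.62, SE 0.403, limma adjusted p = 0.000121), against 2.85 with TCDD and 3.44 with EGF, and the departure of -2.67 (SE 0.598) did not pass the test (adjusted p = 0.0628).

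Dusp6, the ERK phosphatase that limits the pathway, read 445.6, 314.3 and 611.0 with UT, 2790 and 618.7 with TCDD, 4790 and 4646 with EGF and 4509 and 3738 with both. It rose 9.32-fold (log2 3.22, SE 0.523, limma adjusted p = 0.00246) and lay -0.20 from EGF alone (95% interval -1.42 to 1.01). Egr1, an immediate-early zinc finger factor, read 1580, 1670 and 1681 with UT, 9416 and 2499 with TCDD, 12195 and 7245 with EGF and 18126 and 11648 with both. It rose 8.84-fold (log2 3.14, SE 0.638, adjusted p = 0.0112), and 1 joint array exceeded both EGF arrays. For Dusp6 and Egr1 the TCDD 1 array was several times above TCDD 2. The call of Dusp6 was lost without EGF+TCDD 1 (0.0548), and that of Egr1 without either joint array (up to 0.141).

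Egr2 (log2 2.49), Fos (2.69), Ier2 (1.48), Phlda1 (1.04) and Errfi1 (0.99), which encode further immediate-early factors and a feedback inhibitor of the EGF receptor, made up the rest of the 8. Fos was 279.1, 215.5 and 146.1 with UT and 2121 and 833.3 with EGF+TCDD, and its call was lost without EGF+TCDD 1 (log2 2.01, limma adjusted p = 0.222) and without UT 2. The list had 1 gene called higher without EGF+TCDD 1 and 4 without EGF+TCDD 2.

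Among 9 genes of the EGF receptor family and its ligands, Ereg and Errfi1 rose and 7 were not called, against 2.96% of all probes called higher. Ereg encodes epiregulin, a ligand of the EGF receptor. It was at 1038, 713.4 and 648.1 with UT, 837.0 and 833.5 with TCDD, 939.2 and 893.9 with EGF and 3026 and 2941 with both. The single treatments lay within the range of UT, and both joint arrays lay far above all others. The joint rise was 3.81-fold (log2 1.93, SE 0.432, limma adjusted p = 0.0188), and the step from TCDD to both was 1.84 (adjusted p = 0.0437). The step from EGF to both, 1.70 (adjusted p = 0.286), and the departure, 1.61 (SE 0.641, adjusted p = 0.229), did not pass. The call of Ereg was lost without EGF+TCDD 1, EGF+TCDD 2 or UT 2 (adjusted p up to 0.148). Egfr, the receptor, changed by -0.39 (adjusted p = 0.343) and the ligand gene Hbegf by 0.22 (adjusted p = 0.806), neither called.

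In the list of S phase and DNA replication 18 of 40 genes rose (median log2 1.14), and in the G2 and mitosis list 17 of 42 (median 1.73), with 0 called lower in either by limma. At an unadjusted p under 0.05, 31 and 39 were higher and 0 lower, against 1378 of all 7134 probes in either direction. The corresponding medians with EGF alone were 1.27 and 1.93, and with TCDD alone 0.779 and 0.933. For departure from the sum 0 members of either list were called by limma, against 0.364% of all probes. At an unadjusted p under 0.05, 10 and 14 members lay below the sum and 0 above it, against 1139 of all 7134 probes in either direction. Members share the same arrays, so these counts are not independent. With 1 array left out the departure of Mki67 ran from log2 -2.10 (without TCDD 2) to 0.07 (without TCDD 1). Those of Cdk1, Top2a, Mcm2 and Mcm5 ran from -2.08 to -0.47, -2.71 to -0.97, -1.16 to -0.58 and -1.55 to -0.74.

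Mcm5, a subunit of the replicative helicase, was at 5944, 3137 and 9520 with UT, 18784 and 10879 with TCDD, 14383 and 17640 with EGF and 17354 and 19004 with both. It rose 3.23-fold (log2 1.69, SE 0.379, limma adjusted p = 0.0188) and lay 0.19 from EGF alone (95% interval -0.69 to 1.07). Mcm2, Mcm3, Mcm4 and Mcm7 of the same complex also rose, by 1.45, 1.44, 1.28 and 1.27. Orc2, a subunit of the origin recognition complex, had 2 of 3 UT arrays under the floor (121.8, 164.1 and 139.6) and read 929.6 and 1095 with both, a rise of 6.72-fold (log2 2.75, SE 0.466, adjusted p = 0.00342). Rrm2, the small subunit of ribonucleotide reductase, had a joint change of 2.45-fold that was not called (adjusted p = 0.0600).

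Mki67, Cdk1 and Top2a stand for the mitotic genes, and their promoters are shown because each holds the cell cycle homology region TTTGAA (or TTCAAA) and the CCAAT box (or ATTGG), both in capitals. These are the 150 bases before the RefSeq start in GRCm38.p6, all on the minus strand, at chr7:135716380-135716529 for Mki67, chr10:69352913-69353062 for Cdk1 and chr11:99024190-99024339 for Top2a.
Mki67: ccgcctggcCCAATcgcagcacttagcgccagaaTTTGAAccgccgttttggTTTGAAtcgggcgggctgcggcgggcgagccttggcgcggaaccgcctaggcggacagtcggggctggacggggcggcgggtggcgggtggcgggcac
Cdk1: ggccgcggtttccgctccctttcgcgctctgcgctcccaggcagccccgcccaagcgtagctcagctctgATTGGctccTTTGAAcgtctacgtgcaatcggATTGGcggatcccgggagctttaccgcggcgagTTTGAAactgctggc
Top2a: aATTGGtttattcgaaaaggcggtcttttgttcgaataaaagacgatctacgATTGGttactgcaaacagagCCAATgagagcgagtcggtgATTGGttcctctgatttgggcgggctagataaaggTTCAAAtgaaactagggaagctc
In the 250 bases before the start, on either strand, TTTGAA was found in 8 of the 14 raised G2 and mitosis genes with a promoter, against 13.0% of the tested genes and 18.3% of all genes. CCAAT was found in 12 of the 14, against 41.2% and 37.5%. Of the 34 tested G2 and mitosis genes with a promoter, raised or not, 16 (47.1%) held TTTGAA and 25 (73.5%) held CCAAT. The motifs thus mark the list as a whole, and whether they go with the rise was not tested. The 2 motifs do not overlap in the stretches printed.

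Mki67, the proliferation marker, read 6201, 2316 and 3770 with UT, 13321 and 2958 with TCDD, 21760 and 25463 with EGF and 20408 and 18314 with both. Cdk1, the kinase that drives mitosis, read 12962, 6496 and 8956 with UT, 31568 and 10358 with TCDD, 37559 and 43199 with EGF and 32399 and 33637 with both. In both genes the joint arrays lay above UT and below EGF alone, and TCDD 1 stood far above TCDD 2, which lay within the UT range. The joint rises were 5.11-fold (log2 2.35, SE 0.644, limma adjusted p = 0.0448) and 3.63-fold (log2 1.86, SE 0.460, adjusted p = 0.0293). The differences from EGF alone were -0.28 (95% interval -1.78 to 1.21) and -0.29 (-1.36 to 0.78). Top2a, the mitotic topoisomerase, rose 4.03-fold (log2 2.01, SE 0.525, adjusted p = 0.0384).

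The largest called rises in the list of G2 and mitosis were those of Ect2 (log2 2.60), a regulator of cytokinesis, and Tacc3 (2.59), a spindle protein. Their arrays did not overlap with UT, at 5155 and 3873 against 502.3 to 1139 for Ect2 and at 3571 and 3383 against 327.8 to 1276 for Tacc3. Of 13 genes of the D cyclins and CDK inhibitors, Rbl1, a pocket protein, rose (1.63) and Cdkn1a, the inhibitor p21, fell (-0.89, limma adjusted p = 0.0269). The shares of all probes were 2.96% higher and 2.44% lower. Cdkn1a read 11998, 11071 and 7214 with UT and 5068 and 5611 with both. The call of Cdkn1a was lost without EGF+TCDD 1, EGF+TCDD 2, UT 1 or UT 2, and its other probe gave -0.33 (adjusted p = 0.561).

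These counts rested on few arrays: G2 and mitosis had 0 genes called without either joint array, 1 without UT 2 and 5 without UT 3, and S phase 1 without EGF+TCDD 1, 0 without EGF+TCDD 2 and 2 without UT 2. With the Gapdh ratio as a covariate neither list had a called gene, and with equal array medians they had 9 and 15.

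**Figure D2:**
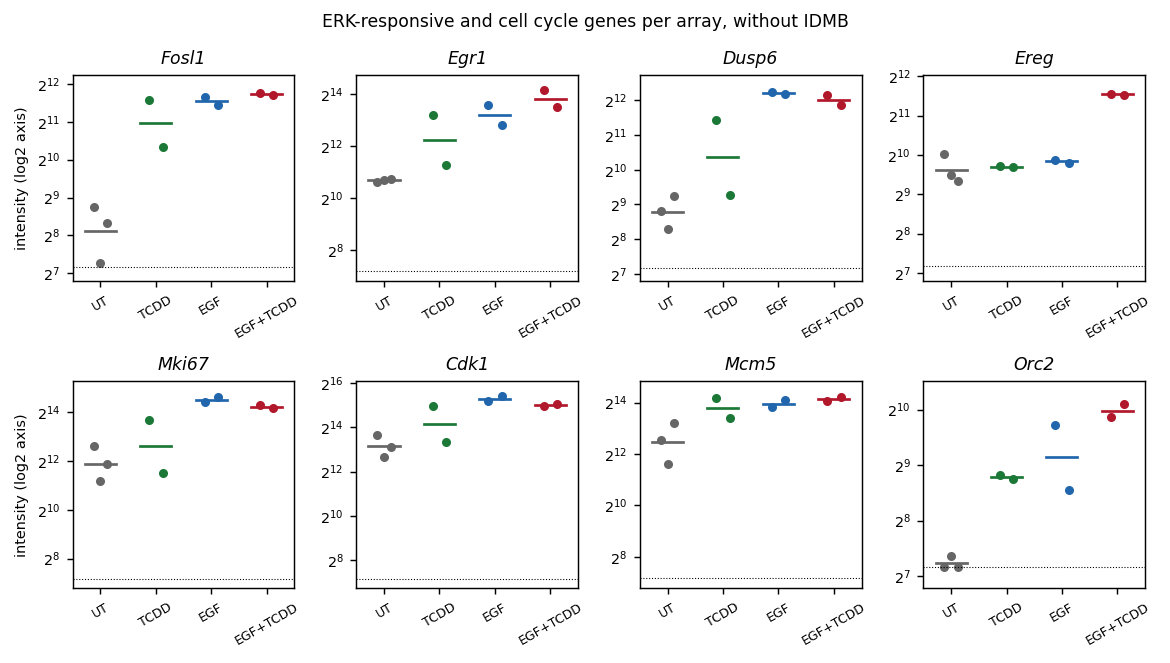
Intensity of 8 genes of the ERK response and of the cell cycle on each of the 9 arrays without IDMB (vertical axes, log2 scale; points are arrays set to the floor of 143.5 where lower, lines are the means of the log2 values, the dotted line is the floor). EGF and EGF+TCDD arrays lie close together for Dusp6, Mki67 and Cdk1, the TCDD arrays are spread, and Ereg reads high on the EGF+TCDD arrays alone.

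The 4 largest called falls were those of Npy1r, Wfdc21, Npr3 and Ccl9. Of 13 genes for natriuretic and other peptide receptors, 2 fell, 0 rose and 11 were not called, against 2.44% of all probes called lower. Npr3, the natriuretic peptide clearance receptor, was at 9212, 9369 and 8646 with UT, 1088 and 2069 with TCDD, 1570 and 1824 with EGF and 812.3 and 720.4 with both. The 3 groups of treated arrays lay below UT with no overlap, and the joint arrays were the lowest. The joint fall was 11.9-fold (log2 -3.57, SE 0.481, limma adjusted p = 0.000856), against -2.60 with TCDD and -2.42 with EGF, and the departure of 1.45 was not called (95% interval -0.06 to 2.96, adjusted p = 0.335). Its other 2 probes gave joint falls of -3.66 and -2.49.

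Npy1r, a neuropeptide Y receptor, read 4926, 6280 and 1338 with UT, 390.2 and 1064 with TCDD, 140.1 and 155.0 with EGF and 249.5 and 173.8 with both. The joint fall was 16.6-fold (log2 -4.05, SE 0.639, limma adjusted p = 0.00219; 12.3- to 26.7-fold with 1 array left out), and the joint and EGF arrays lay near the floor. Ccl9, a chemokine that attracts myeloid cells, read 25984, 54818 and 25210 with UT, 2800 and 1836 with TCDD, 9222 and 5928 with EGF and 3850 and 2148 with both. Here the joint arrays lay with TCDD and below EGF. The fall was 11.5-fold (log2 -3.52, SE 0.430, adjusted p = 0.00032) and the departure 2.50 (adjusted p = 0.0825). It was the only called fall among 12 chemokines and cytokines, against 2.44% of all probes called lower. Npr3, Npy1r and Ccl9 kept their calls whichever 1 of the 9 arrays was left out. With the Gapdh ratio as a covariate Npr3 changed by -2.80 (adjusted p = 0.155), Npy1r by -4.80 (0.0912) and Ccl9 by -2.76 (0.108), none called by limma.

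Wfdc21, a small secreted protein of the whey acidic type, read 3366, 15867 and 6559 with UT and 892.6 and 380.3 with both, a fall of 12.1-fold (log2 -3.60, SE 0.571, limma adjusted p = 0.00219; 7.90- to 18.5-fold with 1 array left out). All 6 treated arrays lay at 935.3 or less. Smoc2, a matricellular calcium-binding protein, read 2971, 2232 and 1202 with UT, 342.7 and 579.4 with TCDD, 357.6 and 429.0 with EGF and 162.4 and 287.0 with both, and fell 9.25-fold (log2 -3.21, SE 0.551, adjusted p = 0.00392). For Smoc2 the joint arrays were the lowest of the 9. The call of Wfdc21 was lost without EGF+TCDD 2 (0.0543) and that of Smoc2 without EGF+TCDD 1 (0.0770).

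Of the enzymes, Fmo1, a flavin monooxygenase, kept its call whichever 1 of the 9 arrays was left out. It read 4438, 10102 and 6461 with UT, 2242 and 4122 with TCDD, 1287 and 1503 with EGF and 1818 and 1254 with both, a joint fall of 4.38-fold (log2 -2.13, SE 0.330, limma adjusted p = 0.00212). Its joint arrays lay with EGF and below TCDD. Cyp4f13, a fatty acid hydroxylase of the CYP4 family, was at 1517, 959.4 and 715.6 with UT, 571.0 and 1137 with TCDD, 832.3 and 441.7 with EGF and 170.7 and 271.4 with both. The single treatments overlapped with UT (log2 -0.33 and -0.74, neither called) and the joint arrays lay below all others. The joint fall was 4.71-fold (log2 -2.24, SE 0.439, adjusted p = 0.00923), and the step from TCDD to both -1.90 (adjusted p = 0.0412). The step from EGF to both, -1.49 (adjusted p = 0.522), and the departure, -1.16 (SE 0.652, 95% interval -2.54 to 0.22), were not called. The fall of Cyp4f13 was not called without EGF+TCDD 1 (0.139).

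Hgf, the hepatocyte growth factor, Cacna2d1, a calcium channel subunit, and Slc1a6, a glutamate transporter, fell by log2 -2.88, -2.73 and -2.76. Leaving out 1 array moved these folds by over 1.5 times, to between 4.66 and 13.1 for Hgf, 4.42 and 9.98 for Cacna2d1 and 3.79 and 12.1 for Slc1a6. The call of Hgf was lost in 8 of 9 such fits, that of Cacna2d1 without EGF+TCDD 2 and that of Slc1a6 without EGF+TCDD 1, UT 1 or UT 3.

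**Figure D3:**
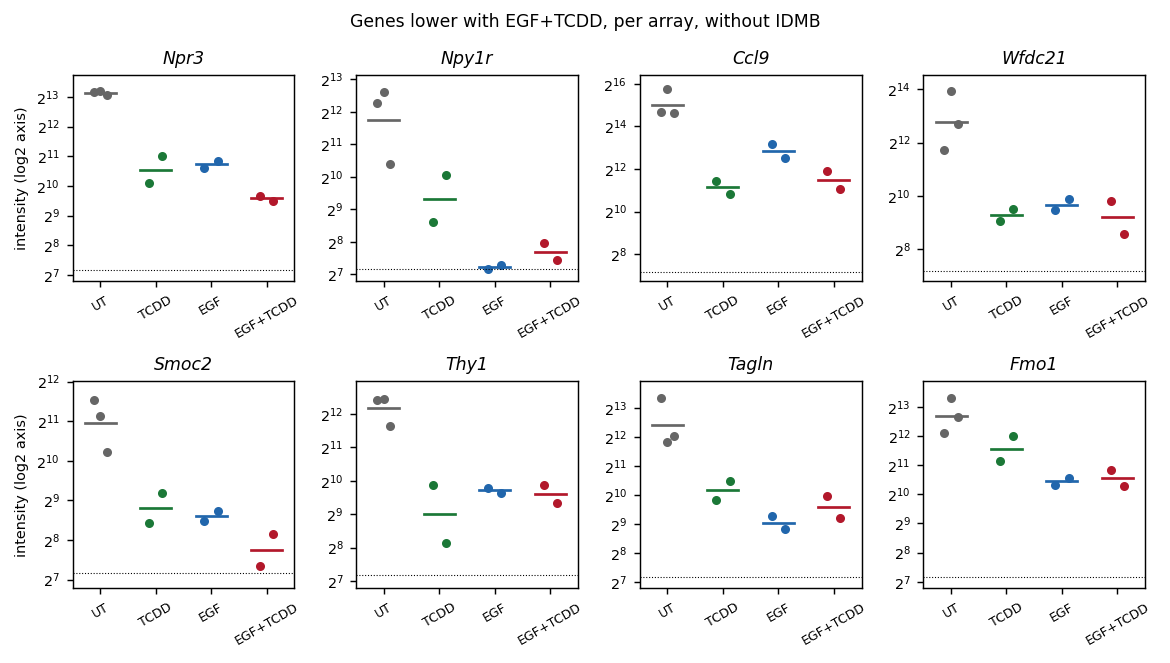
Intensity of 8 genes that fell with EGF+TCDD on each of the 9 arrays without IDMB (vertical axes, log2 scale; points are arrays set to the floor of 143.5 where lower, lines are the means of the log2 values, the dotted line is the floor). The EGF+TCDD arrays lie below every UT array for all 8 genes, and below both single treatments for Npr3 and Smoc2.

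Of 17 genes of the contractile and actin cytoskeleton, 4 fell (Tagln, Acta2, Cnn2 and Tpm1), 1 rose (Tpm2, log2 0.79) and 12 were not called. The shares of all probes were 2.44% lower and 2.96% higher. Tagln, the actin-binding protein SM22, read 10505, 3641 and 4201 with UT, 912.8 and 1448 with TCDD, 625.1 and 449.6 with EGF and 1006 and 588.3 with both. It fell 7.07-fold (log2 -2.82, SE 0.559, limma adjusted p = 0.010), and the joint arrays overlapped with each single treatment. Acta2, smooth muscle actin, read 76661, 84662 and 67138 with UT and 32533 and 39421 with both, a fall of 2.12-fold (log2 -1.08, SE 0.195, adjusted p = 0.0057), close to the -1.03 with TCDD and below the -0.77 with EGF. The departures were 2.78 (adjusted p = 0.123) and 0.72 (adjusted p = 0.233). The list had 0 falls called without EGF+TCDD 1 and 1 without EGF+TCDD 2.

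Thy1, a surface marker of fibroblasts, was the only one of 10 tested fibroblast markers to be called, against 2.44% of all probes called lower. At an unadjusted p under 0.05, 3 of the 10 were lower and 0 higher, against 1378 of all 7134 probes in either direction. Thy1 read 5483, 5605 and 3189 with UT, 945.3 and 279.8 with TCDD, 888.7 and 792.4 with EGF and 939.9 and 650.4 with both. The treated arrays overlapped among themselves and lay below UT. The joint fall was 5.90-fold (log2 -2.56, SE 0.634, limma adjusted p = 0.0294), the single falls were -3.16 and -2.46, and the departure was 3.06 (SE 0.941, adjusted p = 0.135). The call of Thy1 was lost without either joint array and without UT 1 or UT 2 (up to 0.198).

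Of 18 adipocyte and PPARG target genes, 2 fell, 0 rose and 16 were not called, with a median of log2 -0.46. Among all probes 2.44% were called lower and 2.96% higher. Plin4, a lipid droplet coat protein, read 796.0, 1441 and 788.7 with UT and was under the floor on both joint arrays, so its fall was at least 6.74-fold (log2 -2.75, SE 0.610, limma adjusted p = 0.018). Hp, haptoglobin, a plasma protein that fat cells also make, read 8506, 16181 and 7125 with UT and 2455 and 2547 with both (log2 -1.99, SE 0.416, adjusted p = 0.0129). The transcription factor gene Pparg, on which fat cell formation depends, read 1542, 1161 and 832.1 with UT and 663.0 and 344.1 with both, which did not overlap, and its change of -1.26 was not called (adjusted p = 0.0671). Fabp4, a fatty acid carrier and PPARG target, changed by -1.08 (adjusted p = 0.102). Without EGF+TCDD 1, EGF+TCDD 2 or UT 2 the list had 0 falls called.

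Of 24 preadipocyte regulators and inhibitors of adipogenesis, 3 fell: Sfrp1 and Sfrp2, secreted antagonists of WNT signalling, by log2 -1.26 and -1.68, and Fst, the activin-binding protein follistatin, by -1.39. Over all probes 2.96% were called higher and 2.44% lower. These shares stand beside every list count of this paragraph, and counts of 1 or 2 are not read as results about a list. Sfrp2 changed by -0.15 with TCDD alone and -0.50 with EGF alone, neither called, whereas Sfrp1 and Fst were called with each single treatment. No fall in this list was called without EGF+TCDD 1 or EGF+TCDD 2. Of 17 adipogenic transcription factors, Egr2 rose and Ebf3 fell (-0.91), and of 39 genes of the extracellular matrix, Lox, the collagen crosslinking enzyme (-1.31), and P4ha2, a collagen prolyl hydroxylase (-1.33), fell. Of 10 genes of the plasminogen system and metalloproteinases, Timp1, a metalloproteinase inhibitor, rose (0.87) and Mmp14, a membrane metalloproteinase, fell (-0.99). By limma 0 genes were called among 22 of the interferon response, 13 of cholesterol synthesis, 12 of the insulin and IGF axis and 20 of ER stress. In these lists 3, 0, 2 and 2 genes had an unadjusted p under 0.05, against 1378 of all 7134 probes. Igfbp4, a binding protein of insulin-like growth factors, changed by -1.71 (limma adjusted p = 0.0731). A dimmer probe of Igfbp4, under the floor on both joint arrays, was called, with a fall of at least log2 -1.81 (adjusted p = 0.0448).

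**Figure D4:**
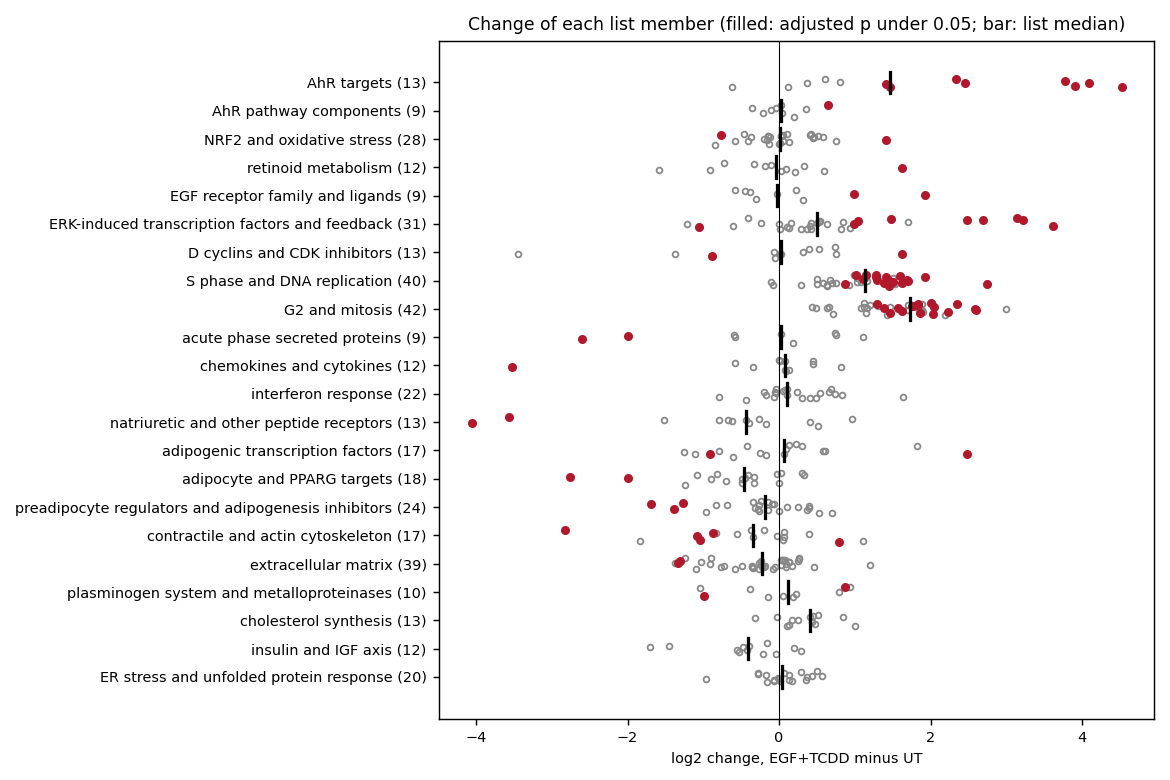
Joint log2 change, EGF+TCDD minus UT (horizontal axis), of each tested member of 22 gene lists (numbers in brackets are the genes tested; filled points passed an adjusted p of 0.05, open points did not, bars are list medians). Members of the AhR target, S phase and G2 and mitosis lists lie mostly to the right of 0, with medians of 1.47, 1.14 and 1.73, and the lowest called points are Npy1r at -4.05 and Npr3 at -3.57.

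The joint change departed from the sum of the single changes on 26 of the 7134 probes (0.364%), above the sum on 19 (0.266%) and below it on 7 (0.0981%). The balance turned with other settings, to 6 above and 8 below on the 9 arrays without IDMB, 6 and 9 with no variance trend, 7 and 12 with no filter on dim probes and 91 and 87 with a replicate block. On the linear scale all 26 kept their sign. The joint change was itself called for 5 of them (Saa3, Epb41l4aos, Adam23, Apbb1ip and Slc29a1). A departure had a median standard error of 0.390, against 0.263 for a joint change. At an unadjusted p under 0.05, 1139 probes departed.

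Saa3, an acute phase serum amyloid protein, read 4191, 11059 and 5354 with UT, 563.4 and 1183 with TCDD, 38.1 and 85.9 with EGF and 1058 and 1022 with both. EGF alone put it under the floor on both arrays, and the joint arrays lay within the range of TCDD alone. The fall was 6.05-fold with both (log2 -2.60, SE 0.402, limma adjusted p = 0.00212), 7.70-fold with TCDD and at least 43.8-fold with EGF. The departure was at least 5.80 (SE 0.597, adjusted p = 0.000284), and Saa3 was at least 7.24-fold higher with both than with EGF alone (adjusted p = 0.005). It was the only named departure called in each of the 9 fits with 1 array left out, where it ran from 5.27 to 6.34, and the only one called with the Gapdh ratio as a covariate (6.36).

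Lcn2, the iron-carrier lipocalin of the acute phase, read 14371, 42813 and 17382 with UT, 11765 and 13134 with TCDD, 4582 and 3680 with EGF and 12191 and 17391 with both. It fell with EGF alone (log2 -2.42), the joint arrays overlapped with UT (-0.60, limma adjusted p = 0.396), and the departure was 2.65 (SE 0.530, adjusted p = 0.0439). A dimmer probe of Lcn2 gave a departure of 0.15 (adjusted p = 0.912). Cxcl12, a chemokine of stromal cells, read 62861, 75688 and 65359 with UT, 58014 and 44148 with TCDD, 28474 and 31086 with EGF and 65547 and 70918 with both. It fell with EGF (-1.19), the joint change was 0.01 (adjusted p = 0.988), and the step from EGF to both was 2.29-fold (adjusted p = 0.0313), with a departure of 1.62 (SE 0.310, adjusted p = 0.0356). Its other 2 probes gave departures of 2.73 (adjusted p = 0.0306) and 1.28 (adjusted p = 0.121).

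Ccn5, a matricellular protein, read 9047, 8787 and 6855 with UT, 6469 and 9454 with TCDD, 2947 and 3514 with EGF and 11346 and 13834 with both. The joint arrays were the highest and the EGF arrays the lowest of the 9. The joint change, log2 0.62, was not called (limma adjusted p = 0.195), while the step from EGF to both, 1.96 (adjusted p = 0.00364), and the departure, 2.02 (SE 0.385, adjusted p = 0.0356), were. Among the 14 departures named, the step from EGF to both was called for Saa3, Cxcl12, Ccn5 and Rflnb, and the step from TCDD to both for Pex6. The shares of all probes were 0.28% and 3.5%. The departure contains both steps, so genes chosen by it cannot be weighed against those shares.

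Cd70, a ligand of the tumour necrosis factor family, read 693.3, 1352 and 1869 with UT, 315.4 and 444.2 with TCDD, 293.1 and 301.8 with EGF and 1527 and 806.7 with both. Each single treatment lowered it (log2 -1.69 and -2.02), the joint arrays lay within UT (-0.12, limma adjusted p = 0.917), and the departure was 3.59 (SE 0.622, adjusted p = 0.0257). Lxn, latexin, a carboxypeptidase inhibitor, read 41882, 42364 and 24246 with UT, 15322 and 11259 with TCDD, 15820 and 15637 with EGF and 23157 and 25530 with both. Its departure was 2.04 (SE 0.361, adjusted p = 0.0279), and its joint change of -0.53 was not called (adjusted p = 0.246). In both genes the joint arrays lay above all 4 single-treatment arrays.

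Dstn, the actin-severing protein destrin, Adam23, a membrane protein of the ADAM family, Apbb1ip, an adaptor of integrin activation, and Epb41l4aos, an antisense transcript, also lay above the sum, by log2 1.35, 1.55, 1.41 and 1.74. All 4 fell with each single treatment. The array annotation does not state the strand behind the name Epb41l4aos, which may share sequence with its partner gene. Adam23 fell jointly by 2.71-fold (log2 -1.44, SE 0.211, limma adjusted p = 0.0015), near its -1.61 with TCDD and -1.37 with EGF.

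Below the sum lay Rflnb, Cx3cl1, Pex6 and Slc29a1. Rflnb, a filamin-binding protein also known as refilin B, read 2022, 2192 and 3242 with UT, 3151 and 3757 with TCDD, 11219 and 12952 with EGF and 3065 and 2854 with both. The EGF arrays stood above all others, and the joint arrays lay within UT. EGF alone raised it by log2 2.31, the joint change was 0.28 (limma adjusted p = 0.598), the step from EGF to both -2.03 (adjusted p = 0.00162) and the departure -2.53 (SE 0.368, adjusted p = 0.0126). Cx3cl1, the membrane-bound chemokine fractalkine, read 3378, 4724 and 5770 with UT, 11968 and 8756 with TCDD, 15913 and 11989 with EGF and 5716 and 6582 with both. Each single treatment raised it (1.18 and 1.61), the joint change was 0.44 (adjusted p = 0.453), and the departure was -2.35 (SE 0.435, adjusted p = 0.032). A dimmer probe of Cx3cl1 gave a departure of -0.17 (adjusted p = 0.958).

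Pex6, an ATPase of peroxisome assembly, read 2307, 1968 and 2215 with UT, 3776 and 4415 with TCDD, 2785 and 3274 with EGF and 2337 and 2341 with both. The joint change was log2 0.12 (limma adjusted p = 0.778) and the departure -1.29 (SE 0.254, adjusted p = 0.0409). Slc29a1, a nucleoside transporter, rose with both by 0.63 (adjusted p = 0.030), with TCDD by 0.68 and with EGF by 1.22, and its departure was -1.27 (SE 0.231, adjusted p = 0.0306).

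Besides Saa3 and Lcn2 no acute phase gene of 9 was called for departure from the sum, and besides Cxcl12 and Cx3cl1 no chemokine or cytokine of 12. Of all probes 0.364% were called. The lists were written with earlier results of these data known. Uncalled genes may still depart. The 12 chemokines and cytokines had a median departure of log2 1.60. With Cxcl12 and Cx3cl1 counted, 6 of them lay above the sum and 1 below at an unadjusted p under 0.05, against 1139 of all 7134 probes. No member of the other 20 lists plotted was called. The count of departing probes was 1 without EGF+TCDD 1, 2 without TCDD 2, 3 without EGF 2, 5 without EGF 1, 6 without UT 2, 9 without EGF+TCDD 2, 13 without TCDD 1, 42 without UT 1 and 112 without UT 3. The Gapdh ratio differed between the groups as given above, and its part in the departures was not tested beyond the fit with it as a covariate, in which 1 was called.

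**Figure D5:**
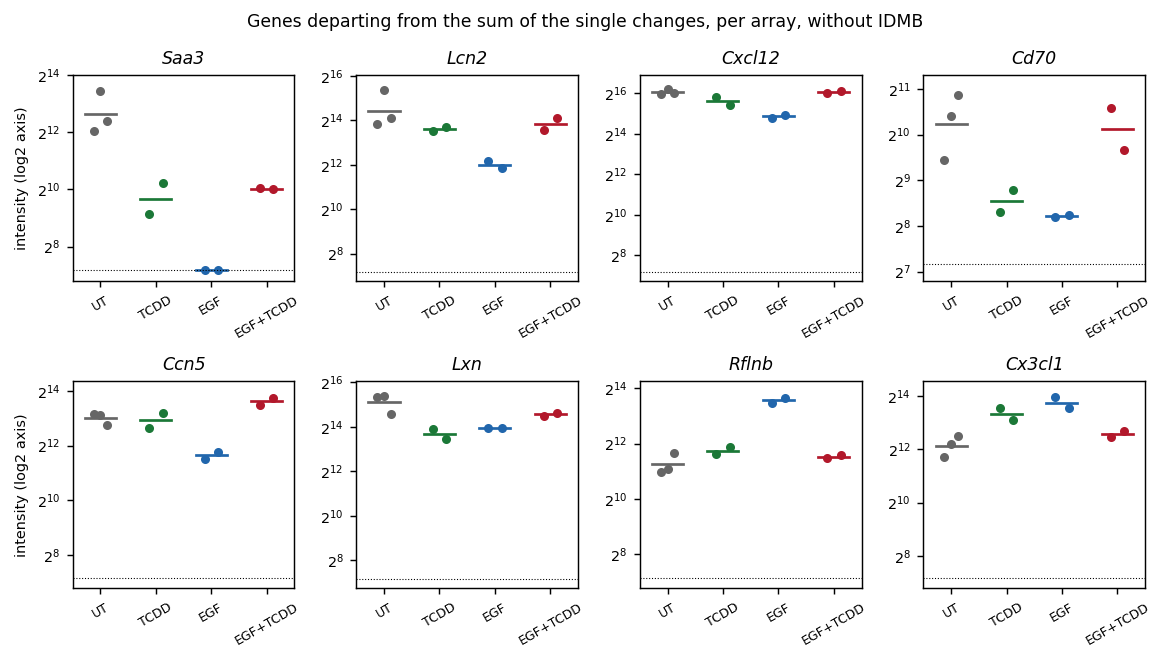
Intensity of 8 genes called for departure from the sum of the single changes, on each of the 9 arrays without IDMB (vertical axes, log2 scale; points are arrays set to the floor of 143.5 where lower, lines are the means of the log2 values, the dotted line is the floor). Saa3, Lcn2, Cxcl12, Cd70 and Ccn5 are lowest with EGF alone and higher with both agents. Lxn is lowest with TCDD alone, low with EGF alone and higher with both. Rflnb and Cx3cl1 are highest with EGF alone and near UT with both.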

How the data were processed

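Arrays were mouse Affymetrix-type arrays read as the authors' deposited table of intensity values on a linear scale, per the labels and the values; the sources used here do not give the software behind them. Trimmed of 2% at each end, the arrays had means of 2501.38 to 2501.71 (those without IDMB), so the deposited values had been scaled. No detection calls were used. Of 12488 probes, 66 control probes were left out, 10833 had 1 gene symbol in the array annotation, 396 several and 1193 none.

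The floor, 143.5, is the 20th percentile of the 18 arrays' values, and lower values were raised to it before log2. A probe was kept if at least 1 of 8 group means reached 9.73, the median log2 value, which left 7134 probes for 5432 genes. limma 3.58.1 in R 4.3.3 fitted 1 mean per group over the 18 arrays with a variance trend (10 residual and 6.03 prior degrees of freedom). Benjamini-Hochberg adjustment ran over the 7134 probes of a comparison. Where an array left out leaves a group with 1, that array is assumed to vary like the others. The number of arrays limits the precision.

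A gene is its probe with the highest mean over the 9 arrays without IDMB. Named genes are Aldh3a1, Npr3 and Saa3, anchor genes of 28 lists, up to 14 genes with the largest called rise and fall (arrays not overlapping) and up to 10 departures in each direction; further list members are named where called, and uncalled ones as stated. The members, lists and alternatives were chosen with earlier results of these data known. Promoters were matched by symbol, for 4405 of 5432 genes; a gene with several starts holds a motif if any start does. The scripts were tested on simulated data with 100 probes changed by log2 1 and 100 by log2 2. Of these the joint test recovered 55% and 89%, and the departure test 14% and 77%. Departures of log2 1 were thus mostly missed there.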

Additional observations from a re-analysis of the deposited data

Results flagged for a closer look

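The EGF change of 14 named genes differed with and without TCDD by the test of the interaction itself (limma adjusted p under 0.05). It is the same test as the departure from the sum, by which these genes were chosen, so it adds no further support. How the calls fared with 1 array left out is given below. The difference in the EGF change was positive for Saa3 (log2 at least 5.80, EGF being at the floor), Cd70 (3.59), Lcn2 (2.65), Lxn (2.04), Ccn5 (2.02), Epb41l4aos (1.74), Cxcl12 (1.62), Adam23 (1.55), Apbb1ip (1.41) and Dstn (1.35). It was negative for Rflnb (-2.53), Cx3cl1 (-2.35), Pex6 (-1.29) and Slc29a1 (-1.27). No group without IDMB holds 4 arrays, so single outlying arrays were not tested.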

How the results depend on the processing

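The 385 probes called for the joint change became 165 with no filter on dim probes, 244 with no variance trend, 10 with the Gapdh ratio as covariate, 72 with the actin ratio as covariate and 46 to 413 with 1 array left out. The 26 departures became 13 with equal array medians, 41 with the floor at the 30th percentile, 14 on the 9 arrays without IDMB, 15 with no variance trend, 1 and 6 with the Gapdh and actin ratios, and 1 to 112 with 1 array left out. The 1 probe beyond both single treatments became 2 with no filter, with the filter on the 4 groups without IDMB and with no trend, 0 on the 9 arrays and with either ratio, and 0 to 4 with 1 array left out. The causes were not tested, though the Gapdh and actin ratios raised the median standard error 1.56 and 1.21 times for the joint change and 1.45 and 1.04 times for the departure. A replicate block gave 585 joint and 178 departure calls and 1 beyond both. Same-numbered arrays share only a number: of 12 pairs, deviations correlated between -0.0478 and 0.155 and 1 pair exceeded 0.1.

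Of the 44 named genes called for the joint change, 12 kept the call whichever array was left out, and of 14 departures, 1 did. Direction turned for uncalled values only. With the replicate block Ahr changed jointly by 0.12 and Cd70 by 0.12. Cxcl12 changed jointly by -0.047 with equal array medians and -0.049 with the actin ratio, and Tiparp departed by 0.079 with the Gapdh ratio. With 1 array left out the joint changes ran from -0.38 to 0.20 for Ahr, -0.048 to 0.089 for Cxcl12 and -0.58 to 0.34 for Cd70. The departures ran from -1.89 to 0.023 for Egr1 and -2.10 to 0.071 for Mki67. Each group of interest holds 2 or 3 arrays, and values near the floor have no order.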
